A study of Mus musculus with 14 samples.

Results

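The type I interferon-stimulated genes described here were 34 named mouse genes among the 55487 gene identifiers counted in bone marrow cells treated with interleukin-1β (IL-1β) or with phosphate-buffered saline (PBS). All 34 symbols matched a counted gene. The members were chosen by the fold changes between IL-1β and PBS in 3 cell populations, for going up in stromal cultures and down in blood progenitors, with no threshold on size. Their fold changes between IL-1β and PBS are therefore given as a description, with no test. The study asked how IL-1β acts on Jak2V617F mutant blood progenitors and on marrow stromal cells, and measured RNA by sequencing after depletion of ribosomal RNA.

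LSK (Lin−Sca1+c-kit+) cells, which hold the blood stem cells, and LK (Lin−c-kit+) cells, which hold the myeloid progenitors, were sorted from the marrow of Jak2VF/+ mice. These animals were irradiated C57BL/6 recipients of marrow that carried a heterozygous Jak2V617F knock-in and Mx1Cre. The Cre was switched on with pI-pC, a synthetic RNA that induces interferon, and this allele, transgene and induction were shared by the PBS and IL-1β groups. PBS or IL-1β was injected into the peritoneum in 3 doses a week for 16 weeks. There were 3 PBS and 2 IL-1β libraries of LSK cells and as many of LK cells. MSC (mesenchymal stromal cell) cultures were grown for 21 days from C57BL/6 marrow and given PBS or 5 ng/ml IL-1β for 72 hours, with 2 libraries in each group. Age was not used here. The labels do not say that replicates came from separate animals or cultures, so that p-values measure only the spread between these samples, which may be technical.

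Type I interferons bind the receptor subunits IFNAR1 and IFNAR2, whose kinases JAK1 and TYK2 activate STAT2. With IRF9 it takes part in a transcription factor that binds the interferon-stimulated response element and switches on the genes described here, most of which sense or restrict viruses. Blood stem cells keep part of this programme on without infection, and Mx1Cre itself uses the promoter of a member, Mx1.

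Sequencing depth differed between groups. LSK libraries with PBS held 12172400, 13241793 and 16271408 counted read pairs, against 8641124 and 4393233 with IL-1β. LK libraries with PBS held 12804883, 18544346 and 13992210, against 7652483 and 6367352 with IL-1β. Since every IL-1β library of sorted cells was shallower than every PBS library, depth and treatment cannot be told apart there. MSC replicates 2 and 3 with PBS held 5834909 and 13155033, and replicates 1 and 2 with IL-1β held 30871055 and 11681794. Values below are in replicate order and in CPM (counts scaled to library size over all 14 libraries) per kilobase of gene length, and levels are compared between genes only on this scale.

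LSK replicate 2 with PBS stood apart from its group. It differed by more than 2-fold from replicate 1 in 4082 and from replicate 3 in 4184 of 15393 genes, whereas replicates 1 and 3 differed in 1546. The IL-1β libraries of LSK cells differed in 3103 genes. All replicate libraries differed by more than sampling noise, and each counted as a sample of its own.

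The marker genes separated the sorted populations. Ly6a, which encodes the Sca-1 antigen of the LSK gate and is itself inducible by interferon, was at 24.9, 38.0 and 28.5 with PBS against 13.7 and 23.7 with IL-1β CPM in LSK cells. LK cells held Ly6a at 0.701, 0.251 and 0.759 with PBS against 1.83 and 0.595 with IL-1β CPM. Kit, the receptor that defines both gates, was at 509.5, 381 and 532 with PBS against 362 and 267 with IL-1β CPM in LSK cells. LK cells held Kit at 287, 291 and 329 with PBS against 336 and 274 with IL-1β CPM. Every LSK library thus lay above every LK library for Ly6a, while Kit was abundant in both populations.

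The MSC label was checked against stromal and macrophage markers. The summed level of 13 mesenchymal markers was 411 and 219.7 CPM per kilobase with PBS against 602 and 640.5 with IL-1β, led by Col1a1 in each library, and none of the 13 was at 0 throughout. The sum of 15 macrophage and monocyte markers in the same cultures was 19737 and 16947 CPM per kilobase with PBS against 36559 and 35793 with IL-1β, led by Lyz2 in 3 libraries and by Ctss in PBS replicate 3. The median marker stood at 279.8 and 197 with PBS against 477 and 469.8 with IL-1β for macrophages, while mesenchymal medians were 8.69 and 6.40 with PBS against 8.16 and 7.16 with IL-1β. Macrophage markers therefore exceeded mesenchymal markers in all 4 cultures, and the label MSC is kept here for what was cultured. A call takes a log2 fold change beyond 0.5 either way, with an edgeR adjusted p below 0.05. With IL-1β, 7 of 14 tested macrophage markers were called higher, Lyz2 by a log2 fold change of 1.77 (SE 0.21) and Adgre1, the F4/80 antigen, by 1.32 (SE 0.13) (edgeR adjusted p = 0.00865 and 0.00468; both higher in both IL-1β cultures). Of 12 tested mesenchymal markers, Dcn and Vcam1 were called higher.

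With PBS the members were at their lowest in LK cells. The median member stood at 3.90, 4.86 and 3.81 with PBS against 0.954 and 1.80 with IL-1β CPM per kilobase in LSK cells. LK libraries had member medians of 2.65, 2.36 and 1.74 with PBS against 0.781 and 1.54 with IL-1β. MSC cultures had member medians of 4.75 and 4.68 with PBS against 22.8 and 23.9 with IL-1β. MSC medians with PBS fell within the LSK range with PBS, and IL-1β libraries lay below PBS libraries in both sorted populations and above them in the cultures.

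In MSC all 34 members passed the filter on low counts, and all 34 had a log2 fold change above 0 with IL-1β. All 34 members, and 33.3% of all genes, had each IL-1β library above each PBS library. The members' log2 fold changes ran from 0.89 for Ifi35 to 4.77 for Ifi44, with a median of 2.67, while the median of all genes was 0.00. Without PBS replicate 2 and without PBS replicate 3 the values were 4.86 and 3.54 for Ifit3b, 4.64 and 2.70 for Oasl1 and 4.70 and 3.21 for Mx1. The macrophage marker sum given above was higher in the same IL-1β cultures. So was that of neutrophil markers, at 3.21 and 3.17 CPM per kilobase with PBS against 43.4 and 44.4 with IL-1β, with 3 of 4 tested called higher, and that of megakaryocyte markers, at 30.5 and 42.1 CPM per kilobase with PBS against 171 and 177 with IL-1β, with 2 of 3 called higher. The third megakaryocyte marker tested had a log2 fold change of -1.09 and was called lower with DESeq2, though not by edgeR. Pf4 alone made up 98.0% and 98.4% of the megakaryocyte sum with IL-1β. Lcn2 alone made up 56.1% and 56.0% of the neutrophil sum with IL-1β, and S100a9, Ngp and Retnlg were at 0 in every MSC library. The part of these markers in the members' levels was not tested. In such bulk samples fewer cells of a type and less RNA per cell cannot be told apart.

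LSK cells went the other way. Of 32 members that passed the filter, 30 had a log2 fold change below 0, with a median of -1.36, or -1.31 with genes at their counting bound, against -0.06 over all genes. In 24 members each IL-1β library lay below each PBS library, as in 21.1% of all genes, and Bst2 was the member with each library above. Without PBS replicate 2 the median was -1.15. Leaving out IL-1β replicate 1 and then 2 gave -0.83 and -2.67 for Irf7, -0.22 and -1.89 for Isg15, -1.08 and -4.05 for Oas2, -1.15 and -2.79 for Oasl1, -1.96 and -3.87 for Rtp4 and -0.80 and -2.28 for Xaf1, and Usp18 was at -2.29 without IL-1β replicate 2.

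In LK cells most members past the filter also had negative log2 fold changes. Whether the fold changes differed between LSK and LK cells was not tested. Of 27 that passed the filter, 23 had a log2 fold change below 0, and the median was -0.45, against -0.03 over all genes. In 17 members each IL-1β library lay below each PBS library, as in 29.5% of all genes, and in Ddx58 each lay above. In the same way IL-1β replicates 1 and 2 left out in turn gave -0.72 and -2.51 for Irf7, 0.10 and -3.06 for Oas2 and 0.18 and -1.52 for Oasl2. Without IL-1β replicate 2 the values were -2.71 for Usp18, -1.74 for Dhx58, -1.58 for Oasl1 and -1.47 for Xaf1.

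**Figure D1:**
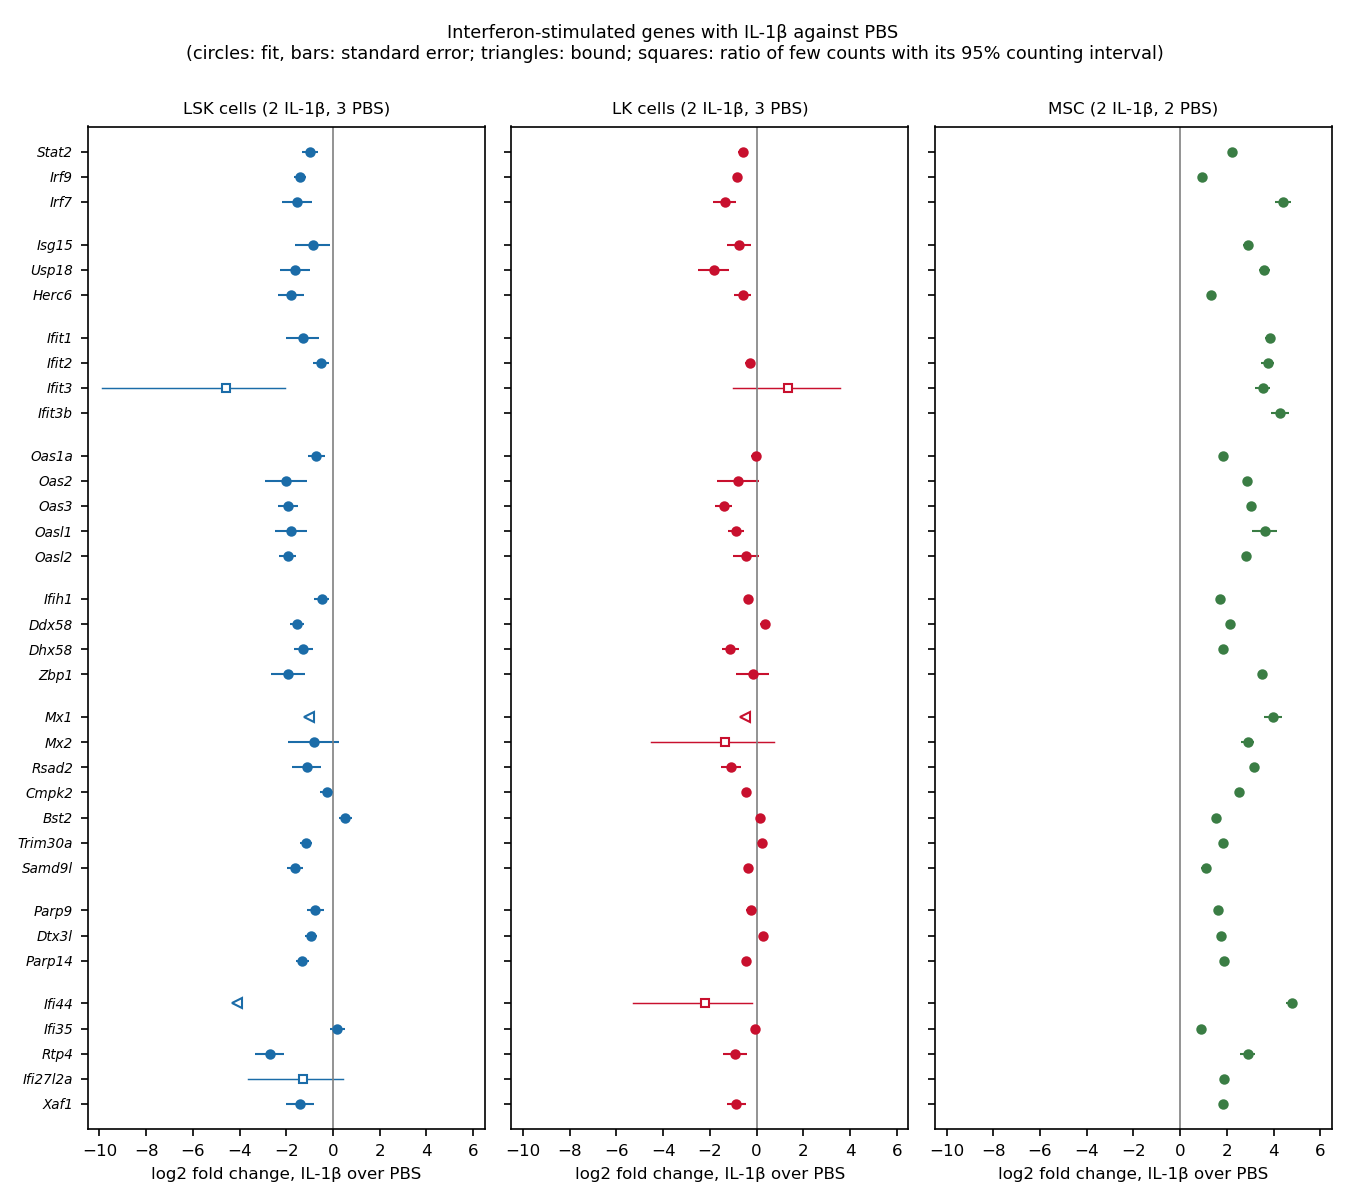
Log2 fold change of each member with IL-1β against PBS in LSK, LK and MSC, 1 line per gene, with bars of 1 SE. Triangles mark lower bounds for genes at 0 counts in every library of a group, and squares mark count ratios with a 95% counting interval where a group held at most 3 counts per library. All MSC values lie right of 0, from 0.89 to 4.77, and most LSK values lie left of it.

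Markers of other cell types also differed with IL-1β in the sorted cells. The sum of 12 neutrophil markers in LSK cells was 718, 623 and 911 CPM per kilobase with PBS against 3223 and 3946 with IL-1β, with Mpo, the granule peroxidase, most abundant in each library and none of the 12 at 0 throughout. Of 10 tested in LSK, 4 were called higher, namely Lcn2, Elane, Mpo and Prtn3. In LK cells the neutrophil sum was 1644, 2119.8 and 3563 CPM per kilobase with PBS against 8219 and 6964 with IL-1β, again led by Mpo, and 6 of 11 tested were called higher. In both sorted populations each IL-1β library thus held a higher neutrophil marker sum than each PBS library.

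The 12 stem and progenitor markers summed to 371, 299.7 and 383 CPM per kilobase with PBS against 238 and 231 with IL-1β in LSK cells, where Flt3 and Hlf were among those called lower. The LK sum of these markers was 119, 118 and 156 CPM per kilobase with PBS against 158 and 123 with IL-1β, with 1 of 12, Flt3, called lower. Cd34 was the most abundant of them in LSK libraries with PBS and Cd48 in all LK libraries. Erythroid markers, 10 in all, summed to 2323, 1826 and 1875 CPM per kilobase with PBS against 1135 and 1263 with IL-1β in LK cells, led by Car1, and 4 of 10 were called lower. In LSK cells the erythroid sum was 216, 169.8 and 201 CPM per kilobase with PBS against 137 and 301 with IL-1β, led by Car1 in 4 of 5 libraries, with 0 of 9 called by edgeR (0 higher and 1 lower unadjusted, 0 with DESeq2).

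Plasmacytoid dendritic cells are known for making type I interferon. Their 9 markers summed to 18.7, 18.8 and 13.3 CPM per kilobase with PBS against 8.52 and 6.75 with IL-1β in LSK cells and to 4.74, 5.52 and 5.54 CPM per kilobase with PBS against 7.32 and 8.08 with IL-1β in LK cells. Runx2 was the most abundant except in LK replicate 2 with IL-1β, where it was Cox6a2, and Klk1 and Klra17 were at 0 in every sorted library. The edgeR test called 0 of 4 in LSK (0 higher and 3 lower unadjusted, 0 and 2 with DESeq2). It called 0 of 3 in LK (1 higher and 0 lower unadjusted, 1 and 0 with DESeq2).

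Macrophage markers summed to 106, 112 and 128 CPM per kilobase with PBS against 62.6 and 97.4 with IL-1β in LSK cells and to 89.3, 86.4 and 136 CPM per kilobase with PBS against 89.2 and 73.3 with IL-1β in LK cells, where Csf1r, Cx3cr1 and Ctss were called lower. Megakaryocyte markers, 6 in all, summed to 113, 192 and 141 CPM per kilobase with PBS against 168 and 147 with IL-1β in LSK cells, led by Pf4 with PBS and Itga2b with IL-1β. The LK sum was 36.8, 26.7 and 46.6 CPM per kilobase with PBS against 43.6 and 21.8 with IL-1β, and Vwf was called lower there. The 10 T and NK cell markers were nearly all Nkg7, with Cd3g, Cd3d and Gzma at 0 in every library of sorted cells, and their sums were 93.1, 102 and 104 CPM per kilobase with PBS against 196 and 288 with IL-1β in LSK cells and 56.5, 62.5 and 108 CPM per kilobase with PBS against 285 and 243 with IL-1β in LK cells. B cell markers summed to 11, 5.13 and 14.6 CPM per kilobase with PBS against 7.14 and 11.4 with IL-1β in LSK cells and 5.77, 6.04 and 8.32 CPM per kilobase with PBS against 9.25 and 9.63 with IL-1β in LK cells. Endothelial markers summed to 22.5, 18.7 and 22.8 CPM per kilobase with PBS against 14.9 and 10.9 with IL-1β in LSK cells and 7.44, 6.99 and 12.2 CPM per kilobase with PBS against 9.52 and 6.82 with IL-1β in LK cells. How far any of these cell types takes part in the members' levels was not tested.

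The transcription factors of the pathway come first among the members. Stat2 encodes the activated factor named above, Irf9 the DNA-binding subunit of the complex, and Irf7 a factor that itself drives interferon alpha genes. Irf7 was at 3.38, 1.84 and 2.62 CPM per kilobase in LSK cells with PBS, against 0.406 and 1.47 with IL-1β. LK values of Irf7 were 2.41, 2.66 and 2.01 with PBS against 0.388 and 1.38 with IL-1β. MSC cultures held Irf7 at 4.39 and 2.18 with PBS against 66.0 and 68.6 with IL-1β. For Irf7 the groups did not overlap in any population, with IL-1β libraries low in sorted cells and high in cultures. Irf7 had log2 fold changes of -1.53 (SE 0.64) in LSK, -1.37 (SE 0.47) in LK and 4.41 (SE 0.33) in MSC. Stat2 levels in LSK cells were 6.67, 5.82 and 5.61 CPM per kilobase with PBS against 3.90 and 2.13 with IL-1β. Those of Stat2 in LK cells were 4.81, 6.74 and 4.35 with PBS, against 3.17 and 3.59 with IL-1β. MSC Stat2 levels were 8.15 and 8.93 with PBS against 39.8 and 40.9 with IL-1β. Stat2 likewise lay below PBS in each IL-1β library of sorted cells and above it in the cultures. The Stat2 log2 fold changes were -0.99 (SE 0.33) in LSK, -0.58 (SE 0.21) in LK and 2.20 (SE 0.11) in MSC. Irf9 followed the same order, from 11, 11.9 and 9.21 to 4.89 and 6.46 CPM per kilobase in LK cells. For Irf9, IL-1β against PBS gave log2 fold changes of -1.42 (SE 0.27) in LSK, -0.84 (SE 0.17) in LK and 0.93 (SE 0.15) in MSC.

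Isg15 encodes a ubiquitin-like protein that is joined to other proteins, Herc6 a ligase that joins it and Usp18 the protease that removes it and also damps receptor signalling. In LSK cells Isg15 was measured at 5.74, 22.3 and 7.47 CPM per kilobase with PBS against 3.11 and 10.1 with IL-1β. In LK cells Isg15 gave 5.98, 3.21 and 2.75 with PBS against 2.08 and 2.33 with IL-1β. The MSC Isg15 values were 11.2 and 16.6 with PBS against 101 and 121 with IL-1β. LSK replicate 2 with PBS was the highest sorted library for Isg15, and the LSK groups overlapped, while LK and MSC groups did not. The Isg15 log2 fold changes were -0.87 (SE 0.76) in LSK, -0.77 (SE 0.52) in LK and 2.91 (SE 0.21) in MSC. Without that library the LSK value was -0.04. Usp18 was at 3.01, 6.41 and 2.32 CPM per kilobase in LSK cells with PBS, against 0.785 and 1.83 with IL-1β. LK values of Usp18 were 3.43, 2.07 and 0.964 with PBS against 0.306 and 0.852 with IL-1β. MSC cultures held Usp18 at 1.13 and 1.28 with PBS against 13.7 and 16.8 with IL-1β. Usp18 groups were apart in all 3 populations, with a wide spread among LK libraries with PBS. For Usp18, IL-1β against PBS gave log2 fold changes of -1.61 (SE 0.63) in LSK, -1.84 (SE 0.66) in LK and 3.61 (SE 0.22) in MSC. Herc6 had log2 fold changes of -1.79 in LSK, -0.60 in LK and 1.33 in MSC, with groups apart in each, and in LSK -1.15 without PBS replicate 2.

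IFIT proteins bind foreign RNA and block its translation. Ifit3 levels in LSK cells were 0.417, 2.39 and 0.442 CPM per kilobase with PBS against 0 and 0.127 with IL-1β. Those of Ifit3 in LK cells were 0.0446, 0 and 0.158 with PBS, against 0.140 and 0.170 with IL-1β. MSC Ifit3 levels were 9.49 and 5.60 with PBS against 73.0 and 97.9 with IL-1β. In LSK cells most Ifit3 counts came from PBS replicate 2, with counts of 11, 59 and 15 with PBS against 0 and 1 with IL-1β. In LK cells Ifit3 counts of 1, 0 and 4 with PBS against 2 and 2 with IL-1β gave no fold change that could be told from 0. As a ratio of counts Ifit3 was lower with IL-1β in LSK by 23.8-fold (95% counting interval 4.16 to 952), or by 10.3-fold (95% counting interval 1.69 to 421) without PBS replicate 2, and in MSC its log2 fold change was 3.53 (SE 0.32). Such counting intervals, and the floor of 3 counts per library used for bounds, cover counting error only.

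Ifit3b, its near-identical neighbour, had counts of 4, 1 and 1 with PBS against 0 and 0 with IL-1β in LSK cells and 0 in all LK libraries. MSC cultures held Ifit3b at 0.887 and 0.365 CPM per kilobase with PBS against 9.84 and 12.1 with IL-1β, which as a log2 fold change was 4.27 (SE 0.39). No fold change is given for sorted cells, where too few read pairs were counted. Reads of Ifit3 and Ifit3b may be shared or lost between the copies, which makes both levels uncertain. In LSK cells Ifit2 was measured at 6.70, 5.85 and 9.13 CPM per kilobase with PBS against 5.94 and 4.23 with IL-1β. In LK cells Ifit2 gave 4.70, 5.25 and 6.17 with PBS against 3.82 and 4.5 with IL-1β. The MSC Ifit2 values were 3.21 and 1.93 with PBS against 29.8 and 37.7 with IL-1β. Ifit2 groups overlapped in LSK and were apart in LK and MSC. Ifit2 had log2 fold changes of -0.51 (SE 0.34) in LSK, -0.30 (SE 0.19) in LK and 3.75 (SE 0.28) in MSC. Ifit1 had log2 fold changes of -1.30 in LSK and 3.85 in MSC, and in LK its counts of 9, 8 and 10 with PBS against 5 and 8 with IL-1β were too low for the filter.

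OAS enzymes make short oligoadenylates that activate RNase L, while Oasl1 is known to hold back translation of Irf7. Oas1a was at 10.1, 18.3 and 12 CPM per kilobase in LSK cells with PBS, against 7.61 and 8.82 with IL-1β. LK values of Oas1a were 7.15, 5.33 and 6.92 with PBS against 5.76 and 6.39 with IL-1β. MSC cultures held Oas1a at 22.4 and 21.5 with PBS against 77.4 and 84.7 with IL-1β. LSK and MSC groups were apart for Oas1a, and LK groups overlapped. The Oas1a log2 fold changes were -0.72 (SE 0.36) in LSK, -0.01 (SE 0.22) in LK and 1.85 (SE 0.12) in MSC. The nearby copy Oas1g may share reads with it, which makes its level uncertain. Oasl2 levels in LSK cells were 3.91, 3.58 and 3.55 CPM per kilobase with PBS against 0.859 and 1.08 with IL-1β. Those of Oasl2 in LK cells were 0.367, 0.417 and 0.628 with PBS, against 0.153 and 0.513 with IL-1β. MSC Oasl2 levels were 7.02 and 5.21 with PBS against 45.2 and 42.1 with IL-1β. For Oasl2 each LSK library lay above each LK library, with PBS and with IL-1β alike. Oasl2 had log2 fold changes of -1.94 (SE 0.36) in LSK, -0.45 (SE 0.57) in LK and 2.81 (SE 0.17) in MSC. In LSK cells Oas3 was measured at 3.61, 4.85 and 2.36 CPM per kilobase with PBS against 0.898 and 1.00 with IL-1β. In LK cells Oas3 gave 0.859, 0.959 and 0.693 with PBS against 0.224 and 0.378 with IL-1β. The MSC Oas3 values were 3.18 and 3.18 with PBS against 25.9 and 27.2 with IL-1β. Oas3 groups did not overlap in any population. For Oas3, IL-1β against PBS gave log2 fold changes of -1.92 (SE 0.41) in LSK, -1.41 (SE 0.38) in LK and 3.03 (SE 0.12) in MSC. Oas2 had log2 fold changes of -2.01 (SE 0.90) in LSK, -0.80 (SE 0.90) in LK and 2.85 (SE 0.15) in MSC, with counts in sorted cells with IL-1β of only 3 and 12 in LSK and 1 and 8 in LK. Oasl1 gave -1.81, -0.89 and 3.61 on the same scale, with LSK and LK groups apart.

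**Figure D2:**
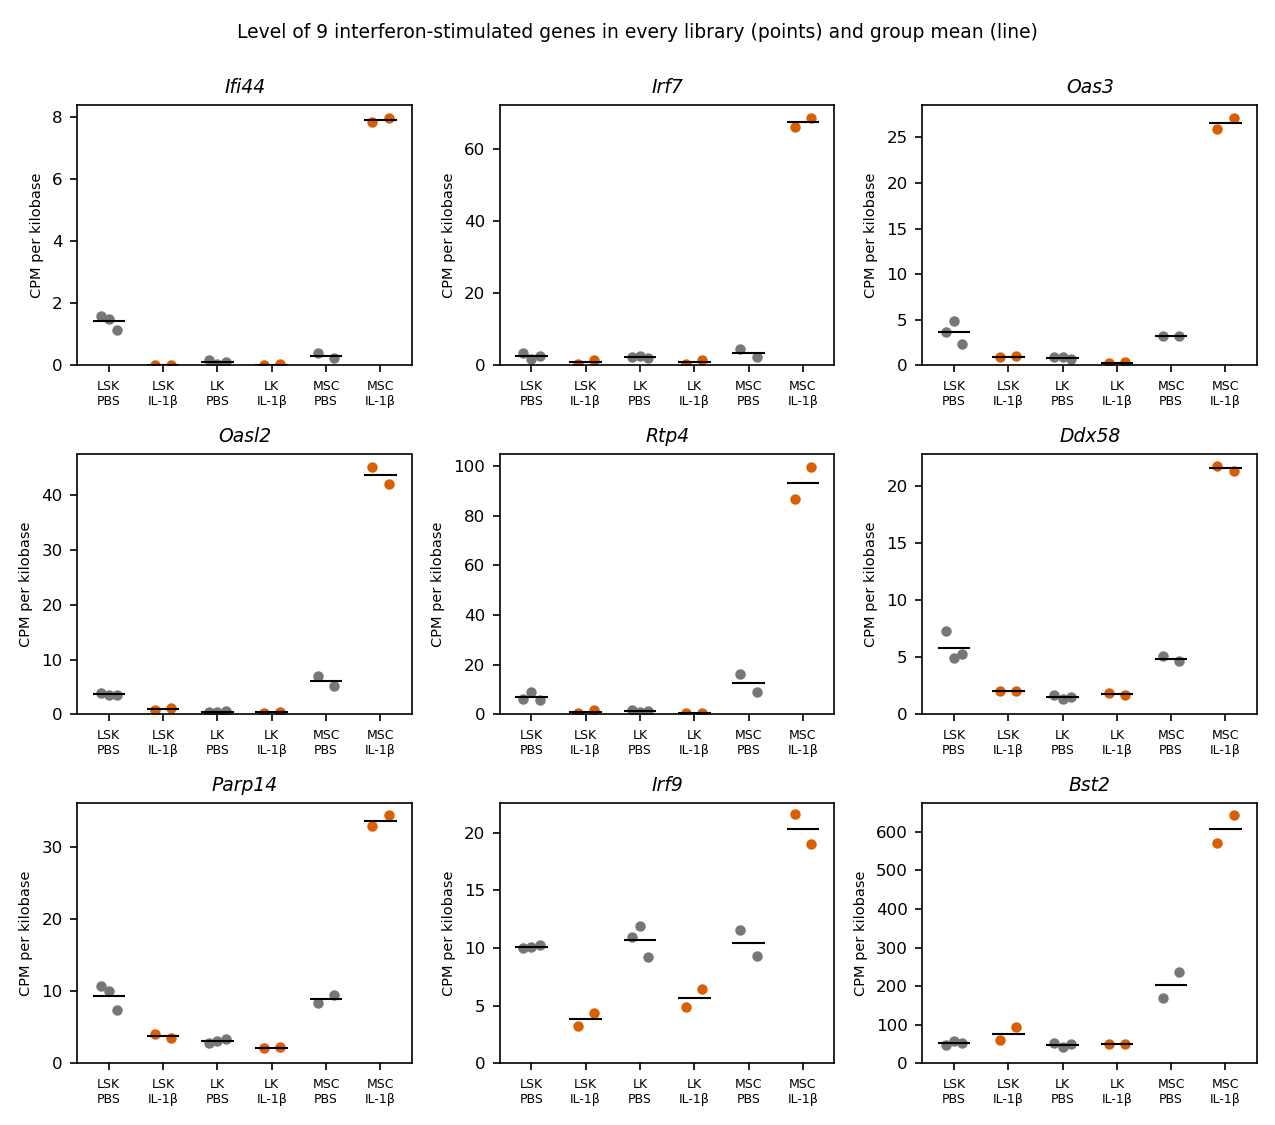
Level of 9 members in every library, in CPM per kilobase, by population and treatment, with a point for each library. In MSC both IL-1β points lie above both PBS points for each gene, and in LSK cells Bst2 is the gene of the 9 whose IL-1β points lie above PBS.

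The sensors detect viral nucleic acids in the cytoplasm, with Ddx58 encoding RIG-I, Ifih1 MDA5, Dhx58 their regulator LGP2, and Zbp1 a sensor of left-handed nucleic acids. In LSK cells Ddx58 was measured at 7.29, 4.96 and 5.30 CPM per kilobase with PBS against 2.02 and 2.01 with IL-1β. In LK cells Ddx58 gave 1.66, 1.36 and 1.48 with PBS against 1.89 and 1.71 with IL-1β. The MSC Ddx58 values were 5.12 and 4.65 with PBS against 21.8 and 21.4 with IL-1β. Ddx58 was thus lower with IL-1β in LSK cells, while its LK values, all low, lay slightly above PBS. Ddx58 had log2 fold changes of -1.54 (SE 0.31) in LSK, 0.34 (SE 0.21) in LK and 2.11 (SE 0.11) in MSC. Dhx58 was at 3.88, 4.30 and 4.89 CPM per kilobase in LSK cells with PBS, against 1.51 and 2.17 with IL-1β. LK values of Dhx58 were 3.02, 3.85 and 3.06 with PBS against 0.932 and 2.0 with IL-1β. MSC cultures held Dhx58 at 7.77 and 5.61 with PBS against 22.8 and 25.4 with IL-1β. Dhx58 groups were apart in each population, low with IL-1β in sorted cells. The Dhx58 log2 fold changes were -1.26 (SE 0.41) in LSK, -1.12 (SE 0.35) in LK and 1.84 (SE 0.19) in MSC. Ifih1 had log2 fold changes of -0.49 in LSK, -0.35 in LK and 1.71 in MSC, with overlap in LSK and LK cells. Zbp1 gave -1.93, -0.16 and 3.49 in the same order.

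Among antiviral effectors Bst2, which encodes tetherin and holds budding virus at the cell surface, was the most abundant member. Bst2 levels in LSK cells were 47.8, 57.6 and 52.5 CPM per kilobase with PBS against 60.0 and 93.2 with IL-1β. Those of Bst2 in LK cells were 51.7, 41.6 and 50.4 with PBS, against 49.2 and 50.7 with IL-1β. MSC Bst2 levels were 168 and 237 with PBS against 572 and 643 with IL-1β. It was the member whose LSK libraries with IL-1β both lay above all PBS libraries, with overlap in LK cells. For Bst2, IL-1β against PBS gave log2 fold changes of 0.54 (SE 0.27) in LSK, 0.14 (SE 0.14) in LK and 1.55 (SE 0.19) in MSC. Trim30a was at 17.5, 15.7 and 13.5 CPM per kilobase in LSK cells with PBS, against 7.35 and 6.47 with IL-1β. LK values of Trim30a were 4.68, 5.15 and 6.75 with PBS against 5.97 and 6.36 with IL-1β. MSC cultures held Trim30a at 14.4 and 13.8 with PBS against 53.3 and 48.5 with IL-1β. For Trim30a, a ubiquitin ligase gene, the groups were apart in LSK and MSC and overlapped in LK. Trim30a had log2 fold changes of -1.17 (SE 0.26) in LSK, 0.23 (SE 0.19) in LK and 1.82 (SE 0.10) in MSC. Its copy Trim30d may share reads with it, which makes that level uncertain.

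Mx1 encodes a dynamin-like GTPase whose C57BL/6 allele is known to be truncated. In LSK cells Mx1 was measured at 0.332, 0.224 and 0.245 CPM per kilobase with PBS against 0 and 0 with IL-1β. In LK cells Mx1 gave 0.144, 0.212 and 0.0911 with PBS against 0 and 0 with IL-1β. The MSC Mx1 values were 0.729 and 0.265 with PBS against 6.92 and 7.17 with IL-1β. In sorted cells with IL-1β no read pair of Mx1 was counted, against counts of 19, 12 and 18 in LSK and 7, 16 and 5 in LK cells with PBS. Mx1 was at least 2.03-fold lower with IL-1β in LSK and at least 1.39-fold lower in LK, and its MSC log2 fold change was 3.97 (SE 0.40). Mx2 gave -0.83 in LSK and 2.90 in MSC, and in LK a count ratio of 2.53-fold (95% counting interval 0.594 to 22.6) lower. Rsad2, which encodes viperin, had log2 fold changes of -1.12 in LSK, -1.11 in LK and 3.17 in MSC. Its neighbour Cmpk2, a mitochondrial nucleotide kinase gene, gave -0.27, -0.43 and 2.52. Samd9l, a growth-restraining gene of blood cells, gave -1.63, -0.36 and 1.09.

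Parp9 and Dtx3l encode partners that join ADP-ribosylation to ubiquitin transfer, and Parp14 a related ADP-ribosyltransferase. Dtx3l levels in LSK cells were 19.5, 19.9 and 15.2 CPM per kilobase with PBS against 9.68 and 9.40 with IL-1β. Those of Dtx3l in LK cells were 7.15, 6.81 and 8.40 with PBS, against 7.59 and 9.40 with IL-1β. MSC Dtx3l levels were 6.16 and 4.72 with PBS against 18.5 and 18.5 with IL-1β. In LSK cells with IL-1β Dtx3l lay below every LSK library with PBS and above every LK library with PBS, and its LK groups overlapped. The Dtx3l log2 fold changes were -0.93 (SE 0.25) in LSK, 0.26 (SE 0.15) in LK and 1.74 (SE 0.16) in MSC. In LSK cells Parp14 was measured at 10.7, 10.1 and 7.34 CPM per kilobase with PBS against 4.0 and 3.52 with IL-1β. In LK cells Parp14 gave 2.88, 3.08 and 3.43 with PBS against 2.15 and 2.24 with IL-1β. The MSC Parp14 values were 8.43 and 9.44 with PBS against 32.9 and 34.4 with IL-1β. Parp14 groups were apart in all 3 populations. For Parp14, IL-1β against PBS gave log2 fold changes of -1.32 (SE 0.27) in LSK, -0.44 (SE 0.15) in LK and 1.88 (SE 0.11) in MSC. Parp9 had log2 fold changes of -0.75 in LSK, -0.22 in LK and 1.62 in MSC, with overlap in both sorted populations.

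Ifi44, whose product is less well understood, had the largest fold change in MSC. Ifi44 was at 1.59, 1.5 and 1.15 CPM per kilobase in LSK cells with PBS, against 0 and 0 with IL-1β. LK values of Ifi44 were 0.165, 0.0491 and 0.113 with PBS against 0 and 0.0485 with IL-1β. MSC cultures held Ifi44 at 0.386 and 0.223 with PBS against 7.83 and 7.96 with IL-1β. No read pair of Ifi44 was counted in LSK cells with IL-1β, against 147, 130 and 137 with PBS. Ifi44 was at least 17.4-fold lower with IL-1β in LSK, with a count ratio of 4.58-fold (95% counting interval 1.16 to 39.6) lower in LK and a log2 fold change of 4.77 (SE 0.25) in MSC.

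Ifi27l2a encodes a small protein of the mitochondria and nuclear envelope, and Ifi35 a partner of NMI. Ifi27l2a levels in LSK cells were 0.857, 0.764 and 1.67 CPM per kilobase with PBS against 0.473 and 0.479 with IL-1β. Those of Ifi27l2a in LK cells were 1.18, 0.325 and 0.298 with PBS, against 0 and 0 with IL-1β. MSC Ifi27l2a levels were 80.0 and 77.7 with PBS against 302 and 289.6 with IL-1β. Ifi27l2a was among the most abundant members in MSC and near 0 in sorted cells. Its log2 fold change in MSC was 1.87 (SE 0.10), its LSK count ratio was 2.43-fold (95% counting interval 0.744 to 12.5) lower with IL-1β, and the LK counts of 7, 3 and 2 with PBS against 0 and 0 with IL-1β were too few for a fold change. In LSK cells Ifi35 was measured at 13.8, 24.9 and 16.4 CPM per kilobase with PBS against 17.0 and 25.1 with IL-1β. In LK cells Ifi35 gave 19.9, 18.7 and 18.3 with PBS against 16.1 and 18.0 with IL-1β. The MSC Ifi35 values were 22.6 and 23.2 with PBS against 43.0 and 44.3 with IL-1β. Ifi35 had the smallest MSC fold change, and its LSK groups overlapped. Ifi35 had log2 fold changes of 0.19 (SE 0.33) in LSK, -0.08 (SE 0.13) in LK and 0.89 (SE 0.11) in MSC. Rtp4, a chaperone gene with antiviral activity, had log2 fold changes of -2.71 in LSK, -0.91 in LK and 2.89 in MSC. Xaf1, which encodes an antagonist of the apoptosis inhibitor XIAP, gave -1.41, -0.86 and 1.82.

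The comparison of LSK with LK cells asks where the members stand along the progenitor hierarchy without IL-1β, a contrast that the choice of members did not use. The same LSK and LK libraries entered the fold changes with which the members were chosen, so that the contrasts share libraries. Choosing members that were lower with IL-1β favours high values in these PBS libraries, in LSK and in LK cells. The counts with PBS are therefore not independent of that choice, and how far it moved them was not tested. With PBS, 16 of 32 members tested were called higher in LSK and 0 lower, against 18.4% and 12.8% of 12737 genes. Unadjusted counts were 18 higher and 1 lower, and DESeq2 gave 17 and 0. Leaving aside Ifit1, Ifit3, Ifi44, Mx1 and Mx2, which had too few counts in LK cells for the filter there, 13 of 27 were called higher and 0 lower. Over all 32 members tested, with Ifit1, Ifit3, Ifi44, Mx1 and Mx2 included, the median log2 fold change was 1.22, against 0.04 over all genes. Without LSK replicate 2 it was 0.95. With the replicate number as a block 15 were called.

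None of the 3 transcription factors passed, with log2 fold changes of 0.28 (SE 0.21) for Stat2, 0.01 (SE 0.16) for Irf9 and 0.24 (SE 0.32) for Irf7 (edgeR adjusted p = 0.349, 0.966 and 0.602; unadjusted 0, DESeq2 0). Of the ISG15 system 0 of 3 passed by edgeR, with 1 higher unadjusted and 1 with DESeq2. Isg15 had a log2 fold change of 1.65 (SE 0.59) (edgeR adjusted p = 0.0599), which was 0.84 without LSK replicate 2 (edgeR adjusted p = 0.148). It was called in 3 of 13 alternatives, with DESeq2, with the joint fit and with no filter (range 0.0128 to 0.193). Usp18 had a log2 fold change of 0.95 (SE 0.53) (edgeR adjusted p = 0.202). Herc6 gave 1.02 (SE 0.45) (edgeR adjusted p = 0.117), and was called with the block (edgeR adjusted p = 0.0461) and with no filter, in a range over alternatives of 0.0448 to 0.344. Without LSK replicate 2 its value was 0.41.

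Of 3 IFIT genes tested 2 were called higher in LSK, and both had too few counts in LK cells for the filter there. Ifit1 with PBS was at 1.84, 2.96 and 1.24 CPM per kilobase in LSK and 0.264, 0.151 and 0.260 in LK cells, and each LSK library lay above each LK library. Its log2 fold change was 3.24 (SE 0.57) (edgeR adjusted p = 0.00364). Ifit3, at most 4 counts in an LK library, gave 4.05 (SE 1.23) (edgeR adjusted p = 0.0348), and its call was lost without LK replicate 1 or 2 (edgeR adjusted p = 0.141 and 0.117) and without LSK replicate 1 or 2 (edgeR adjusted p = 0.0510 and 0.0730; range over alternatives 0.00728 to 0.141). The Ifit3 value was 3.34 without LK replicate 2, 5.63 without LK replicate 3 and 2.76 without LSK replicate 2. Ifit2 did not pass at 0.52 (SE 0.24) (edgeR adjusted p = 0.127), but passed without LSK replicate 2 (edgeR adjusted p = 0.0327, range 0.0327 to 0.449).

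Of the 5 OAS genes 4 rose. Oasl2 was higher in LSK by a log2 fold change of 3.05 (SE 0.29) (edgeR adjusted p = 0.000304), Oas3 by 2.19 (SE 0.31) (edgeR adjusted p = 0.00138), and all 3 LSK libraries lay above all 3 LK libraries for each. Oas2, at 1.37, 0.921 and 1.5 CPM per kilobase in LSK and 0.175, 0.406 and 0.186 in LK cells, gave 2.38 (SE 0.53) (edgeR adjusted p = 0.00977; 0.0532 without LK replicate 1, range 0.000144 to 0.0532). Oas1a gave 1.15 (SE 0.27) (edgeR adjusted p = 0.0132; 0.0724 without LK replicate 2, range 0.00127 to 0.0724). Oasl1 went the other way at -0.43 (SE 0.37) and did not pass (edgeR adjusted p = 0.403), but was called lower without LSK replicate 2 (edgeR adjusted p = 0.00990, range 0.00990 to 0.646).

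Of 4 sensors 2 rose. Ddx58 had a log2 fold change of 2.06 (SE 0.23) (edgeR adjusted p = 0.000567), with all LSK libraries above all LK libraries. Zbp1, at 1.35, 1.26 and 1.30 CPM per kilobase in LSK and 0.353, 0.142 and 0.391 in LK cells, gave 2.23 (SE 0.55) (edgeR adjusted p = 0.0148). Its call was lost without LK replicate 1 or 2 or LSK replicate 1 (edgeR adjusted p = 0.0594, 0.0664 and 0.0510, range 0.000522 to 0.0664). Dhx58 at 0.49 (SE 0.24) and Ifih1 at 0.19 (SE 0.25) did not pass (edgeR adjusted p = 0.160 and 0.603).

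Of 7 effectors 3 rose. Trim30a led with 1.58 (SE 0.21) (edgeR adjusted p = 0.00113) and lay higher in each LSK library than in each LK library. Rsad2, at 1.86, 0.913 and 2.40 CPM per kilobase in LSK and 0.826, 0.706 and 0.716 in LK cells, gave 1.30 (SE 0.44) (edgeR adjusted p = 0.0499, and 0.0676 with the block, range 0.00315 to 0.193). Samd9l, at 7.09, 5.17 and 6.62 and 4.25, 4.95 and 3.61, gave 0.65 (SE 0.21) (edgeR adjusted p = 0.0446, and 0.0654 with the block, range 0.00855 to 0.172). Rsad2 lost its call without LK replicate 1, 2 or 3 (edgeR adjusted p = 0.135, 0.165 and 0.123) and without LSK replicate 1 or 3 (0.138 and 0.193). So did Samd9l without the same libraries (edgeR adjusted p = 0.152, 0.0973, 0.135, 0.172 and 0.140). Both also lost it with 10 reads in 2 libraries as the filter (edgeR adjusted p = 0.0605 for Rsad2 and 0.0676 for Samd9l) and with DESeq2 size factors (0.0529 and 0.0510), and Samd9l with no filter (0.0571), so that Rsad2 was not called in 8 and Samd9l in 9 of 13 alternatives. Mx2 did not pass (edgeR adjusted p = 0.0809; 0.0416 without LSK replicate 2, range 0.0416 to 0.329), nor did Mx1, Cmpk2 and Bst2 (edgeR adjusted p = 0.340, 0.0990 and 0.360).

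Dtx3l and Parp14 rose, by 1.38 (SE 0.18) and 1.67 (SE 0.19) (edgeR adjusted p = 0.000932 and 0.000665), with no overlap of libraries. Parp9 did not pass (edgeR adjusted p = 0.134; 0.00298 without LSK replicate 2, range 0.00298 to 0.440). Ifi44 rose by 3.80 (SE 0.53) (edgeR adjusted p = 0.00133), Rtp4 by 2.55 (SE 0.38) (edgeR adjusted p = 0.00179) and Xaf1 by 1.40 (SE 0.33) (edgeR adjusted p = 0.0131; 0.0663 and 0.0568 without LK replicate 1 or 2, range 0.000871 to 0.0663). Rtp4 was at 6.02, 8.96 and 5.72 CPM per kilobase in LSK and 1.72, 0.825 and 1.23 in LK cells, and for these 3 genes too each LSK library lay above each LK library. Ifi35 gave 0.04 (SE 0.23) (edgeR adjusted p = 0.914). The count of 16 was 10 without LK replicate 1 or LK replicate 2. Called in all 13 alternatives were Ifit1, Oas3, Oasl2, Ddx58, Trim30a, Dtx3l, Parp14, Ifi44 and Rtp4. Of these, Ifit1 and Ifi44 had too few counts in LK cells for the filter there. They entered this contrast through LSK cells, where they were high, so that their calls carry less weight. The same contrast held 11 of 12 stem and progenitor markers higher in LSK and 10 of 10 erythroid markers lower. Also higher were 2 of 3 plasmacytoid dendritic cell, 3 of 4 megakaryocyte and 3 of 3 endothelial markers tested, 4 of 7 neutrophil markers were lower, and the part of cell composition in the members' levels was not tested.

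With IL-1β the median log2 fold change of LSK against LK was 0.31 over 26 members tested, against -0.02 over all genes, with 20 members above 0. The edgeR test called 0 higher and 0 lower, against 4.18% and 4.14% of 11743 genes (4 higher and 0 lower unadjusted, 0 and 0 with DESeq2). With no filter Oas3 and Parp14 were called higher and Oasl1 lower (edgeR adjusted p = 0.0264, 0.0471 and 0.0437). With the replicate number as a block Oas3, Oasl2 and Parp14 were called higher (edgeR adjusted p = 0.0209, 0.0282 and 0.0386) and Oasl1 lower (edgeR adjusted p = 0.0419). Only that number was shared, which does not show that the IL-1β libraries were paired. Without LSK replicate 1 with IL-1β 8 members were called higher and 1 lower, and without LSK replicate 2 the counts were 4 and 2. The largest differences among those tested were 1.67 (SE 0.46) for Oas3 and 1.56 (SE 0.61) for Oasl2 (edgeR adjusted p = 0.0676 and 0.149). Leaving out LK replicates 1 and 2 with IL-1β in turn gave 0.90 and 2.63 for Oasl2. With 2 libraries a group, at the lower depth of the IL-1β libraries, a count of 0 does not show that the members were alike in LSK and LK cells. Whether the difference between LSK and LK changed with IL-1β was not tested.

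**Figure D3:**
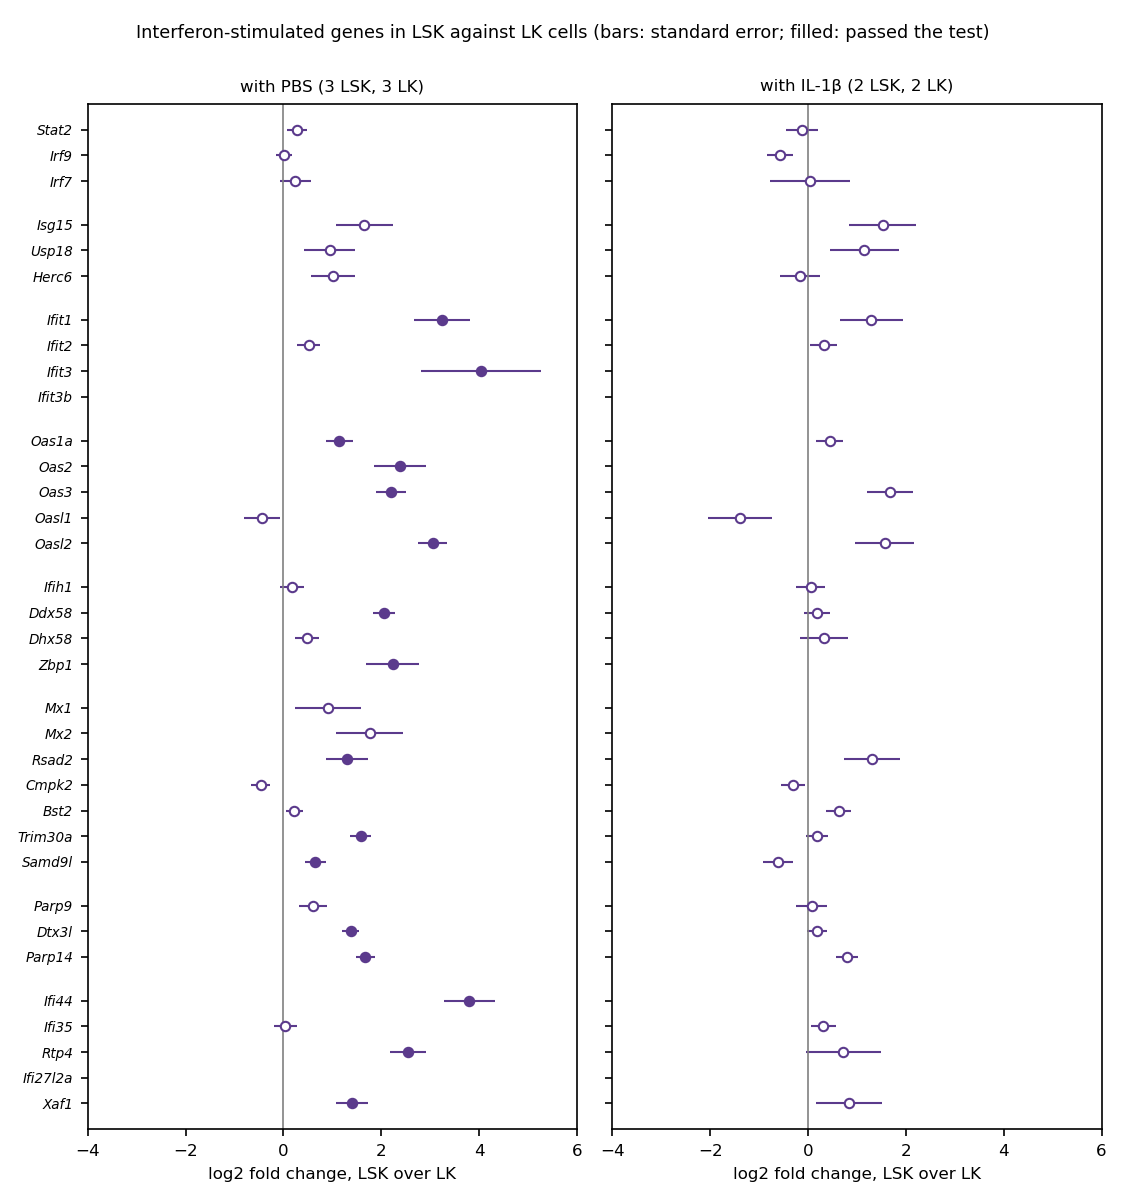
Log2 fold change of LSK against LK cells for each member, with PBS and with IL-1β, with bars of 1 SE. With PBS 16 members were called higher in LSK, and with IL-1β 0 were called.

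The other genes of the interferon pathway were taken from lists by role, 120 of them matched to the counts. These lists were chosen with earlier results of these data known, so that the tests on them are not independent of these data. Of the ligands, 20 matched and 0 were tested in any comparison for want of counts. Ifnb1, the interferon beta gene, was at 0 in every library except MSC replicate 1 with IL-1β, where 2 read pairs gave 0.11 CPM per kilobase. Ifna4 had 1 read pair in LK replicate 2 with PBS and Ifnab 2 in LSK replicate 3 with PBS, and the other ligand genes had none. Interferon transcripts were thus at or near the limit of detection at this depth.

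In MSC with IL-1β 58 of 94 genes tested rose and 0 fell, against 7.14% and 4.31% of all 13239 genes (76 higher and 0 lower unadjusted, 62 and 0 with DESeq2). Without IL-1β replicate 1 the count was 6 and without IL-1β replicate 2 it was 15, while without PBS replicate 2 1 gene was called lower. Of the receptors and kinases 1 of 6 rose, Ifnar1, from 18.2 and 17.5 to 28.2 and 24.9 CPM per kilobase, a log2 fold change of 0.54 (SE 0.10) (edgeR adjusted p = 0.0300). Ifnar2 gave 0.51 (SE 0.13) and did not pass (edgeR adjusted p = 0.0573). Irf1 rose by 0.58 (SE 0.10) on the log2 scale (edgeR adjusted p = 0.0243). Both IL-1β cultures lay above both PBS cultures for Ifnar1 and Irf1, as for all those called.

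Of 12 genes of sensing upstream of interferon 6 rose in MSC, and of 8 negative regulators 2, among them Socs3, which encodes an inhibitor of JAK signalling. Socs3 went from 7.5 and 6.60 CPM per kilobase to 60.6 and 57.5, by 3.04 (SE 0.12) on the log2 scale (edgeR adjusted p = 0.000584). Of 44 other interferon-stimulated genes tested 33 rose, and of 16 interferon gamma response genes 13. Ifi213, a gene of the DNA-binding p200 family, had the largest difference, a count ratio of 123-fold (95% counting interval 47.9 to 452) higher (edgeR adjusted p = 0.000584). The GTPase genes Gbp6 and Gbp5 also rose. Gbp6 had a count ratio of 32.7-fold (95% counting interval 13.9 to 101) and Gbp5 a log2 fold change of 4.34 (SE 0.31) (edgeR adjusted p = 0.00262 and 0.00196). Cxcl9, a chemokine gene, had a count ratio of 23.8-fold (95% counting interval 6.42 to 199) (edgeR adjusted p = 0.0406). Iigp1, Ifi209, Ifi205, Ly6e and Gbp7 rose by 3.90, 3.75, 3.31, 3.28 and 2.93 on the log2 scale.

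In LSK cells with IL-1β 3 of 87 genes tested fell and 0 rose, against 0.312% and 0.320% of all 13132 genes (3 higher and 39 lower unadjusted, 2 and 18 with DESeq2). Irf8, a factor of monocyte and dendritic cell development, was at 25.5, 20.4 and 12 CPM per kilobase with PBS, against 3.23 and 3.71 with IL-1β. All IL-1β values of Irf8 were low, and its log2 fold change was -2.48 (SE 0.35) (edgeR adjusted p = 0.0207). Ifi203, of the p200 family, fell by 1.92 (SE 0.30) on the log2 scale (edgeR adjusted p = 0.0255), and Irgm2, a GTPase gene, by 1.89 (SE 0.34) (edgeR adjusted p = 0.0448), each lower in both IL-1β libraries. The count called lower was 0 without either IL-1β library in turn, 2 without PBS replicate 1, 15 without PBS replicate 2 and 5 without PBS replicate 3, where 1 gene was called higher. Irf1 gave -0.83 (SE 0.26), Ifnar1 -0.82 (SE 0.27) and Ifnar2 -0.60 (SE 0.24), none of which passed (edgeR adjusted p = 0.155, 0.174 and 0.235). Ly6a gave -0.72 (SE 0.36) (edgeR adjusted p = 0.310).

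In LK cells 3 of 80 genes tested rose and 6 fell, against 6.77% and 2.57% of all 12835 genes (13 and 14 unadjusted, 8 and 8 with DESeq2). Irf8 again was lower, from 12.8, 11.9 and 16.5 to 1.28 and 3.10 CPM per kilobase, by 2.59 (SE 0.38) on the log2 scale (edgeR adjusted p = 0.0122). The others that fell were Ifi209 with -2.47, Ifi203 with -1.60, Mavs, the adaptor of RNA sensors, with -1.11, Mndal with -0.93 and Pml with -0.56. Ifitm1, which encodes a membrane protein that blocks virus entry, rose from 30.4, 22.9 and 51.6 to 208 and 206 CPM per kilobase, by 2.64 (SE 0.34) on the log2 scale (edgeR adjusted p = 0.0109). Traf3 with 0.62 and Myd88 with 0.50, adaptors of innate receptors, also rose, and for all 9 genes each IL-1β library lay on 1 side of each PBS library. The count called higher was 0 without either IL-1β library in turn, 2 without PBS replicate 1 or 2, and 14 without PBS replicate 3. The count called lower was 1 without IL-1β replicate 1, 4 without IL-1β replicate 2 or PBS replicate 1, 3 without PBS replicate 2 and 8 without PBS replicate 3. Irf1 gave 0.45 (SE 0.20), Ifnar1 0.03 (SE 0.12) and Ifnar2 -0.09 (SE 0.12), and none passed (edgeR adjusted p = 0.220, 0.891 and 0.682).

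Between LSK and LK cells with PBS 42 of 84 genes tested were called higher in LSK and 2 lower, against 18.4% and 12.8% of all 12737 genes (49 and 2 unadjusted, 45 and 2 with DESeq2). Without LK replicate 1 or LK replicate 2 the count called higher was 23. Irf1 stood at 23.8, 29.1 and 28.2 CPM per kilobase in LSK and 5.54, 6.64 and 8.80 in LK cells, a log2 fold change of 2.04 (SE 0.21) (edgeR adjusted p = 0.000414). Ifnar1 gave 0.68 (SE 0.19) (edgeR adjusted p = 0.0243) and Ifnar2 0.62 (SE 0.15) (edgeR adjusted p = 0.0144). Each LSK library lay above each LK library for these 3 genes. Of interferon gamma response genes 11 of 14 were higher, among them Irgm2 with 2.91 (SE 0.28) (edgeR adjusted p = 0.000299). Lower in LSK were Isg20, an RNA exonuclease gene, with -1.86 (SE 0.29) and Ifngr1, the interferon gamma receptor gene, with -1.48 (SE 0.35) (edgeR adjusted p = 0.00204 and 0.0125).

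With IL-1β 3 of 76 genes were called higher in LSK than in LK cells and 2 lower, against 4.18% and 4.14% of all 11743 genes (18 and 5 unadjusted, 6 and 2 with DESeq2). Higher were Socs3, Ifi203 and Sting1, with 2.88 (SE 0.36), 2.12 (SE 0.32) and 0.84 (SE 0.19) (edgeR adjusted p = 0.0103, 0.0148 and 0.0435). Lower were Ifitm2 and Ifngr1, with -2.90 (SE 0.27) and -1.11 (SE 0.22) (edgeR adjusted p = 0.00476 and 0.0304), and in all 5 genes the libraries did not overlap. Without LSK replicate 1 the counts were 22 higher and 9 lower, and without LSK replicate 2 they were 19 and 7. Leaving out LK replicate 1 or LK replicate 2 gave 2 higher, and 1 lower without LK replicate 1. Irf1 gave 0.75 and did not pass.

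The members lie on 13 chromosomes in build GRCm38, and 16 of them form 6 clusters of neighbours at most 500000 bases apart. Ifit2, Ifit3, Ifit3b and Ifit1 share chr19:34550694-34650009. Oas2, Oas3 and Oas1a lie at chr5:120730333-120907521, and Oasl2 and Oasl1 at chr5:114896936-114937915. Parp14, Dtx3l and Parp9 lie at chr16:35832874-35972605, Mx1 and Mx2 at chr16:97447035-97560900, and Rsad2 and Cmpk2 at chr12:26442746-26479837. The neighbours Oas2, Oas3 and Oas1a gave log2 fold changes with IL-1β of -0.80, -1.41 and -0.01 in LK cells and -2.01, -1.92 and -0.72 in LSK cells. This cluster was chosen after its values were seen, and differences between neighbours were not tested. Parp9 and Dtx3l overlap by 682 bases on opposite strands, which stranded counting keeps apart. On the same strand Irf9 overlaps Rnf31 by 123 bases, and Rnf31 had 8402 counts over all libraries against 10784 of Irf9. Herc6 overlaps Gm45193, which had 0 counts, by 45031 bases. Parp14 overlaps Gm49730, which had 19 counts over all libraries, and Rtp4 overlaps Gm45338, which had 40, also on the same strand. Reads in all these stretches are uncertain.

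Promoter windows from RefSeq (GRCm38.p6, 250 bases before to 50 after the start) were given for 24 of 34 members. The core of the interferon-stimulated response element was searched as GAAANNGAAA, or TTTCNNTTTC on the other strand, and may overlap sites of other factors that read GAAA repeats. It was found in 12 of the 24 members (50%) and in 1079 of 27025 genes with a window (3.99%), counting all windows of a gene. Over windows it was in 13 of 27 (48.1%) and 1131 of 32851 (3.44%). Some lists of other interferon genes held it as often or more, with 23 of 40 other interferon-stimulated genes (57.5%), 10 of 12 interferon gamma response genes (83.3%) and 11 of 20 ligand genes (55%), so that the core does not set the members apart from these. It was also found in 0 of 7 receptors and kinases, 1 of 7 STAT and IRF factors, 1 of 10 sensing genes and 1 of 6 negative regulators. Differences between the lists were not tested. A match says only that these letters are present.

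The windows below belong to members chosen by the size of their fold changes with IL-1β, with cores in capitals, 5′ to 3′ on the gene's strand. Ifi44 (chr3:151749861-151750160, minus strand), the highest fold change in MSC, holds no core in its window. Bst2 (chr8:71537423-71537722, minus strand), the highest fold change in LSK among members past the filter, has 2 overlapping cores, from bases 121 and 127. Ddx58 (chr4:40239776-40240075, minus strand), the highest in LK on the same terms, has a core from base 253.
Ifi44: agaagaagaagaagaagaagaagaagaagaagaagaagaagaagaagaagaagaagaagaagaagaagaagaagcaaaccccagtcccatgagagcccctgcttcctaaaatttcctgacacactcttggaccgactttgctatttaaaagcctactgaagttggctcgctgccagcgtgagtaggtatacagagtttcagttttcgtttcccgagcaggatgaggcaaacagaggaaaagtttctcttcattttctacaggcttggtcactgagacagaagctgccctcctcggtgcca
Bst2: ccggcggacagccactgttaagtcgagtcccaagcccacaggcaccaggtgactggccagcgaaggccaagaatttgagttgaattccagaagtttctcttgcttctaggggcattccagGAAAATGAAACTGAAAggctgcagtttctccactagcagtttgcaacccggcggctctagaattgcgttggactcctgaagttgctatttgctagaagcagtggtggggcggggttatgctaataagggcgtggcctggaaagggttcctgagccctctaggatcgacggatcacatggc
Ddx58: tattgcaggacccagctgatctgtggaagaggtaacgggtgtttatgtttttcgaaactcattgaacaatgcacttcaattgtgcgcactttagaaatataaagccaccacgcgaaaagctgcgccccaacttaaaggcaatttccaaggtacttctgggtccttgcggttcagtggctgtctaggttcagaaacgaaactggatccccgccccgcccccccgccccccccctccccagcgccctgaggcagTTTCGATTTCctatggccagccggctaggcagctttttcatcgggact

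The Ifit3 and Ifit3b windows were chosen after their values were seen, to show how alike the copies are. Ifit3 (chr19:34583279-34583578, plus strand) has cores from bases 95 and 129, and Ifit3b (chr19:34607707-34608006, plus strand) from bases 63 and 97. The windows share an unbroken stretch of 169 bases. In the cultures with IL-1β Ifit3 was at 73.0 and 97.9 CPM per kilobase and Ifit3b at 9.84 and 12.1.
Ifit3: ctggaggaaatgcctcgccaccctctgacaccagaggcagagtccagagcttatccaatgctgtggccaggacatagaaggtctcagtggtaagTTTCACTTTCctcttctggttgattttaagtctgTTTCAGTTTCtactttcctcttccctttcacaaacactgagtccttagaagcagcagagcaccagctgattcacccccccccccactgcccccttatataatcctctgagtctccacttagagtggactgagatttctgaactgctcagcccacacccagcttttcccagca
Ifit3b: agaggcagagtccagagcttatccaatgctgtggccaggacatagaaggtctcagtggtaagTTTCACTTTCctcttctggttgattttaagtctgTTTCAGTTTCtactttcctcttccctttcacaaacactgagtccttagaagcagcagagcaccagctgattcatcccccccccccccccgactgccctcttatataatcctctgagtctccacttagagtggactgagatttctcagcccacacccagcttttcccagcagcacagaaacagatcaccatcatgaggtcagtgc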

How the data were processed

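Gene counts of read pairs were deposited by the authors as whole numbers, not normalized, for LSK, LK and MSC libraries. Per the labels and file headers, the authors trimmed reads with fastp 0.20.0, aligned them to GRCm38 with HISAT2 2.0.1 and SAMtools 1.10, and counted strand-specific read pairs with featureCounts 2.0.2. Each table held 55487 identifiers, of which 55141 had a symbol. A further MSC library named in a header was not analysed here.

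Comparisons used edgeR 4.0.16 in R 4.3.3 (filterByExpr, TMM, robust quasi-likelihood test) with Benjamini-Hochberg adjustment over all genes tested, fitted on the groups compared. Genes were called at a log2 fold change beyond 0.5 either way with adjusted p below 0.05. The scripts were tested on simulated data. Standard errors (SE) were the size of the log2 fold change over the root of F. Depth ran from 4393233 to 30871055 counted read pairs per library. A gene at 0 in every library of a group was given a bound at 3 counts per library, and a gene at no more than 3 counts per library a count ratio with a 95% Clopper-Pearson interval.

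Replicate numbers were shared by the LSK and LK libraries. Deviations of same-numbered PBS libraries from their group means correlated over 13839 genes at 0.211, 0.128 and 0.472. As each was over 0.1 the numbers were taken to pair the PBS libraries, and the block was fitted as an alternative. Crossed pairs of replicates 1 and 2 correlated at 0.124 and 0.162, so that LSK replicate 2 correlated more with LK replicate 1 than with its own number, while pairs of 3 with 1 or 2 were at -0.381 to -0.211.

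Alternatives were DESeq2 1.42.0, its size factors in edgeR, no filter, 10 reads in 2 libraries, no minimum fold change, LSK and LK fitted jointly, the block, and each library left out. The members, role lists and marker lists were chosen with earlier results of these data known. Members were all accounted for, and given in full were the 2 most abundant of each role group and the 3 largest rises and falls with IL-1β. Outside genes were named if called with IL-1β, up to 10 a comparison, and always Irf1, Ifnar1, Ifnar2, Ifnb1 and Ly6a, with a further pathway gene and a marker gene not reported here. Others named with a value, such as those of the LSK and LK comparison, were chosen after their values were seen. An interferon zeta symbol with 2 identifiers was not used for expression. Its promoter window, which held no core, was among those of the 20 ligand genes.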

Additional observations from a re-analysis of the deposited data

Results flagged for a closer look

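In 26 members every IL-1β library lay above every PBS library in MSC cultures and below every PBS library in LSK cells, which is the opposite movement for which the members were chosen. Among those past the filter on low counts in both it was 24 of 32, against 9.48% of 11566 genes. In 20 members the same held of MSC cultures and LK cells, or in 17 of 27 past the filter, against 9.41% of 11358 genes. The difference between the populations was not tested. The cultures and the sorted cells differed in genotype, irradiation and transplantation, pI-pC induction, tissue handling, dose and time. Past the filter in all 3 populations, 12 of 27 members had IL-1β libraries below PBS in both sorted populations and above it in MSC, against 3.68% of 11183 genes.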

How the results depend on the processing

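Most results kept their direction, and no result changed sign as a call. Over members and alternatives, 358 log2 fold changes with IL-1β moved by less than 1 SE in LSK and 20 by more, with 302 and 20 in LK and 265 and 41 in MSC. In LSK against LK 379 kept their side of the threshold with PBS, with 9 stronger and 28 weaker, and 263 with IL-1β, with 22 stronger. With DESeq2, 2 outside genes were called higher in LSK and 18 lower. DESeq2 also gave 8 outside genes higher in LK and 6 higher in LSK against LK with IL-1β. The joint fit gave 23 outside genes lower in LSK, 1 higher in LK, and 0 outside genes lower in LSK against LK with IL-1β. With no filter, 3 outside genes were higher and 20 lower in LSK, and 8 were higher in LK. No filter also gave 1 outside gene lower in LSK against LK with PBS, and with IL-1β 2 members higher, 1 member lower and 11 outside genes higher. The cause was not tested.

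With the replicate block, 3 outside genes were higher and 15 lower in LSK, and 14 were higher in LK. In LSK against LK with IL-1β the block gave 3 members higher, 1 lower and 12 outside genes higher. Only a number was shared there, with a correlation of 0.1 over 2 pairs, and within LSK or LK the PBS and IL-1β libraries correlated at 0.126 and -0.035 in LSK and -0.102 and 0.0333 in LK. Beside the calls given in the report, the block changed no other member call in LSK against LK with PBS. No paired analysis was possible because the MSC groups share 1 replicate number.

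With each library left out, members called in LSK against LK ran from 10 to 18 higher and 0 to 1 lower with PBS, and from 0 to 8 higher and 0 to 2 lower with IL-1β. Outside genes called higher ran from 0 to 1 in LSK, 0 to 14 in LK, 6 to 70 in MSC, 23 to 50 in LSK against LK with PBS and 2 to 22 with IL-1β. Those called lower ran from 0 to 15 in LSK, 1 to 8 in LK, 0 to 1 in MSC and 1 to 9 in LSK against LK with IL-1β. Median log2 fold changes of members ran from -1.52 to -1.15 in LSK, -0.67 to -0.34 in LK, 2.52 to 2.68 in MSC, 0.95 to 1.35 in LSK against LK with PBS and 0.21 to 0.61 with IL-1β. A group left with 1 library was taken to vary like the other group. Depth limits members near 0 counts in sorted cells, such as Mx1, Mx2, Ifit3, Ifit3b and Ifi27l2a, and Ifi44 and Oas2 with IL-1β.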
